A study of Mus musculus with 38 samples.

Results

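Tail skin of mice given hippuric acid was compared with tail skin of mice given ABX, both without induction of vitiligo. The libraries were taken by their treatment label, 5 named wild type with hippuric acid i.p. (intraperitoneal injection; hippuric acid skin) and 6 named wild type with ABX treated (ABX skin), together 11 of the 38 bulk RNA-seq libraries of the series. The series models vitiligo, in which patches of skin lose their melanocytes, and asks how gut microbes and hippuric acid, a metabolite that depends on them, act on skin. ABX is the labels' abbreviation, and the study's design text gives depletion of gut microbes as its purpose. Each treatment has a control of its own, 3 libraries named wild type with vehicle i.p. (vehicle skin) and 9 libraries named wild type alone (no-induction skin). None of the 4 groups carries the induction, and the treatment label of all 23 libraries names wild type. The labels give no strain, sex, age, dose, duration or cohort, and no time of day at which skin was taken. They do not say whether each library is from its own mouse. The p-values therefore reflect spread among libraries, which may be technical.

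Hippuric acid is benzoic acid joined to glycine. Gut microbes turn plant phenols into benzoic acid, and the mitochondria of liver and kidney add the glycine, so its level in blood falls when gut microbes are depleted. Hippuric acid injection and microbe depletion are in that respect opposite treatments. Tail skin carries an epidermis that renews from its basal layer and hardens into cornified cells, hair follicles that build shafts of keratins and keratin-associated proteins in cycles, sebaceous glands that secrete lipids, a dermis of fibroblasts and collagen, and a layer of fat. Skin cells also run a circadian clock, a loop in which the activators Clock and Arntl switch on their own repressors.

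Levels are CPM (counts scaled to a common library total) on library sizes scaled by TMM, and a gene was called when the adjusted p of edgeR's quasi-likelihood test lay under 0.05, with no fold limit. The 11 hippuric acid and ABX libraries held 17.3 to 20.5 M counts, and the 12 control libraries 15.9 to 26.0 M. The defining markers of the labelled tissue were present, since Krt5, Krt14 and Krt10 of epidermis and Col1a1, Col1a2 and Dcn of dermis stood at 969 CPM or more in every hippuric acid and ABX library. The summed level of Krt5, Krt14, Krt10 and Krt1 was 8845 to 11440 CPM in hippuric acid skin. It was 14961 to 18128 CPM in 5 ABX libraries and 9439 CPM in ABX 6, which therefore resembled hippuric acid skin in this measure, and counts that moved by more than 1.5 times without ABX 6 are given both ways. Adipocyte genes split the hippuric acid group, with a mean log2(CPM + 1) over the list of 5.54 to 5.94 in hippuric acid 1, 2 and 4 and 4.67 and 4.74 in hippuric acid 3 and 5, against 4.48 to 5.17 in ABX skin. Y-linked genes summed to at most 0.15 CPM in the 11 libraries compared, and to 173 to 229 CPM in 3 control libraries (vehicle 1, no-induction 11 and 12). Cohort and collection time cannot be told apart from treatment.

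Hippuric acid skin and ABX skin had much in common when each was set against its own control. Of 13897 genes tested in both, 1928 were called in hippuric acid against vehicle and 4333 in ABX against no-induction, comparisons that share no library. Of all genes tested in each, hippuric acid against vehicle called 13.8% (5.48% higher and 8.29% lower) and ABX against no-induction 31.1% (15.4% higher and 15.8% lower). In 1106 genes both calls had the same direction, 57.4% of the first set and 25.5% of the second, and in 21 genes they were opposite. Between vehicle and no-induction skin, the controls, edgeR called 0 of 14175 genes (0%), with 509 at an unadjusted p under 0.05, DESeq2 called 7 and limma-voom 3.

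What still differed was tested in 2 ways. Directly, hippuric acid against ABX skin gave 2097 called genes of 14003 tested (15%), 970 higher (6.93%) and 1127 lower (8.05%), with a median log2 fold change over all genes of 0.003. Most were small, as 194 passed a 2-fold change, 140 of them higher and 54 lower. Relative to the controls, the difference of the 2 effects (hippuric acid against vehicle, minus ABX against no-induction) gave 266 called genes of 14501 (1.83%), 157 higher (1.08%) and 109 lower (0.752%). The direct comparison and the difference share the hippuric acid and ABX libraries, so their values are given side by side and neither supports the other. The direct count was 1317 without hippuric acid 4 and 2685 without ABX 6. The count of the difference rested on single libraries more heavily. It was 104 to 165 without hippuric acid 3, 4 or 5, ABX 2, 4 or 5, vehicle 1 or 2 or no-induction 21, 22 or 23. It was 440 to 483 without ABX 6 or no-induction 5 or 12, and 178 without the 3 libraries that hold Y-linked transcripts.

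**Figure D1:**
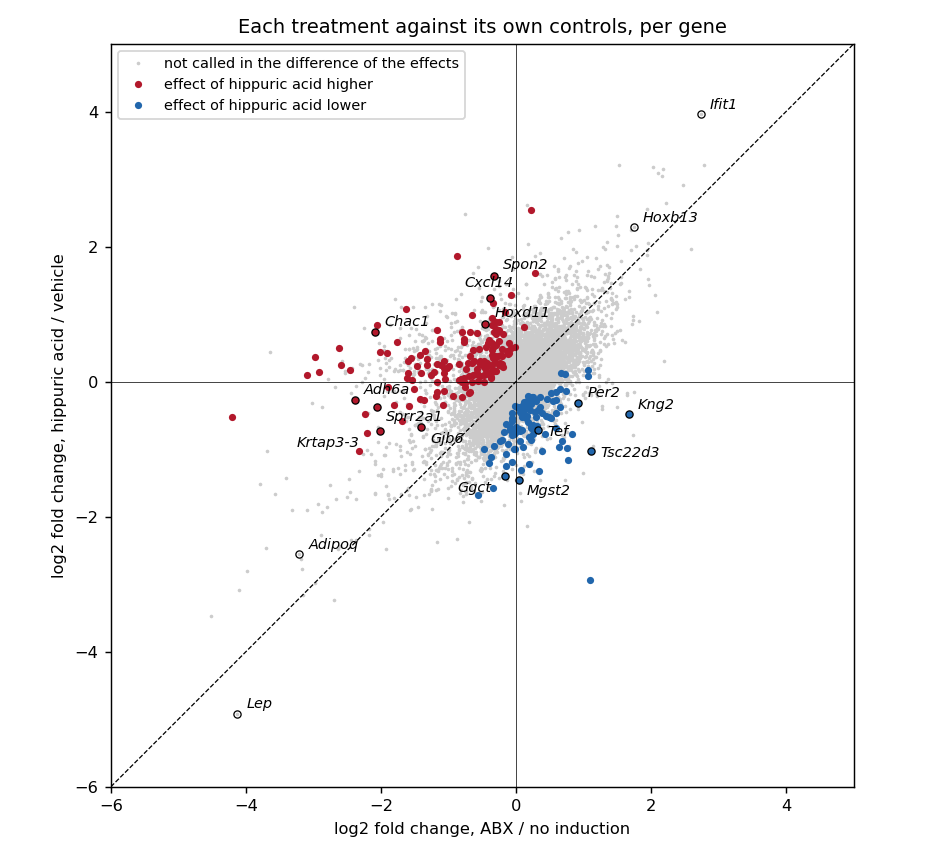
Each point is a gene, at its log2 fold change in ABX against no-induction skin (x axis) and in hippuric acid against vehicle skin (y axis). Coloured points were called in the difference of the 2 effects, red where the effect of hippuric acid was the higher and blue where it was the lower. They lie off the diagonal on which both effects are equal. Drawn are the 13897 genes tested in both comparisons, 3 of them outside the axes. The 157 higher and 109 lower calls are of the 14501 genes tested for the difference.

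Members of several groups of genes were called in 1 direction more often than all genes were. In hippuric acid skin 15 of 43 keratin-associated proteins (34.9%) and 11 of 35 hair follicle regulators (31.4%) were higher, against 6.93% of all genes. Lower were 14 of 20 sebaceous gland genes (70%), 12 of 23 genes of cholesterol synthesis (52.2%), 10 of 21 circadian clock genes (47.6%), 33 of 73 nuclear genes of oxidative phosphorylation (45.2%) and 9 of 20 basal keratinocyte genes (45%), against 8.05%. In the difference of the 2 effects 10 clock genes were called lower and 7 keratin-associated proteins and 2 hair follicle regulators higher. Of the sebaceous, cholesterol, oxidative phosphorylation and basal lists 1, 0, 2 and 1 were called lower there. These counts were not tested against each other. With single libraries left out the 7 ranged from 1 to 15, and the count of follicle regulators from 0 to 6. Those of oxidative phosphorylation and basal genes each ranged from 0 to 4.

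**Figure D2:**
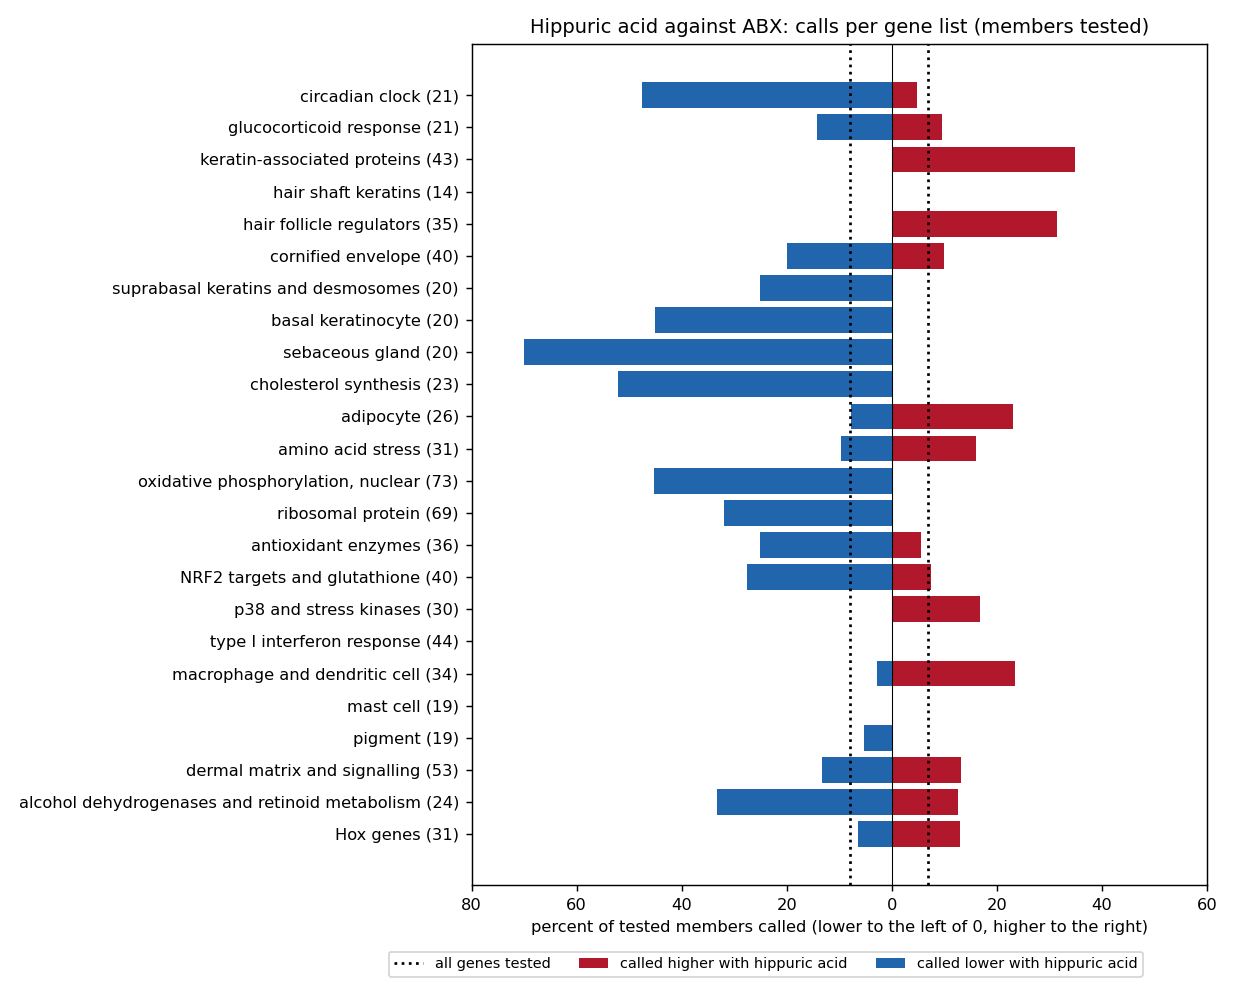
Percent of tested members of each gene list called higher (red) or lower (blue) in hippuric acid against ABX skin, with dotted lines at the share of all 14003 genes called in that direction (6.93% and 8.05%). Sebaceous gland, cholesterol synthesis, circadian clock, oxidative phosphorylation and basal keratinocyte genes stand out on the lower side, and keratin-associated proteins on the higher side.

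Only 3 genes passed when a change of more than 1.5-fold was required, Mgst2, Kng2 and Adh6a, and all 3 were also called in the difference of the 2 effects. Mgst2, a microsomal glutathione S-transferase that also makes leukotriene C4, had 4.65, 6.23, 4.5, 4.12 and 4.75 CPM in hippuric acid skin, against 10.8 to 13.9 CPM (median 12.3) in ABX skin. The groups did not overlap (log2 fold change -1.35 ± 0.12, adjusted p = 9.12e-05). The controls resembled ABX skin, with 12.4, 13 and 14.7 CPM in vehicle skin and 8.17 to 17.8 CPM (median 11.3) in no-induction skin, and the difference of the 2 effects was -1.51 ± 0.21 (adjusted p = 0.00232).

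Kng2, a kininogen, a precursor of vasoactive kinins, had 2.2, 2.03, 1.64, 1.42 and 2.09 CPM in hippuric acid skin, against 5.51 to 8.04 CPM (median 6.53) in ABX skin. All 5 hippuric acid libraries lay under every ABX library (log2 fold change -1.85 ± 0.16, adjusted p = 9.12e-05). Here it was ABX skin that stood away from its control, 1.67 ± 0.17 (adjusted p = 6.54e-06), whereas hippuric acid against vehicle gave -0.49 ± 0.31 (adjusted p = 0.327). Adh6a, a member of the alcohol dehydrogenase family, had 8.12, 8.69, 6.73, 13.5 and 5.77 CPM in hippuric acid skin, against 1.77 to 3.06 CPM (median 2.34) in ABX skin. Again the groups were apart (log2 fold change 1.82 ± 0.21, adjusted p = 0.000429). ABX skin also differed from its control, -2.39 ± 0.19 (adjusted p = 1.12e-06), with -0.27 ± 0.25 (adjusted p = 0.509) for hippuric acid against vehicle.

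**Figure D3:**
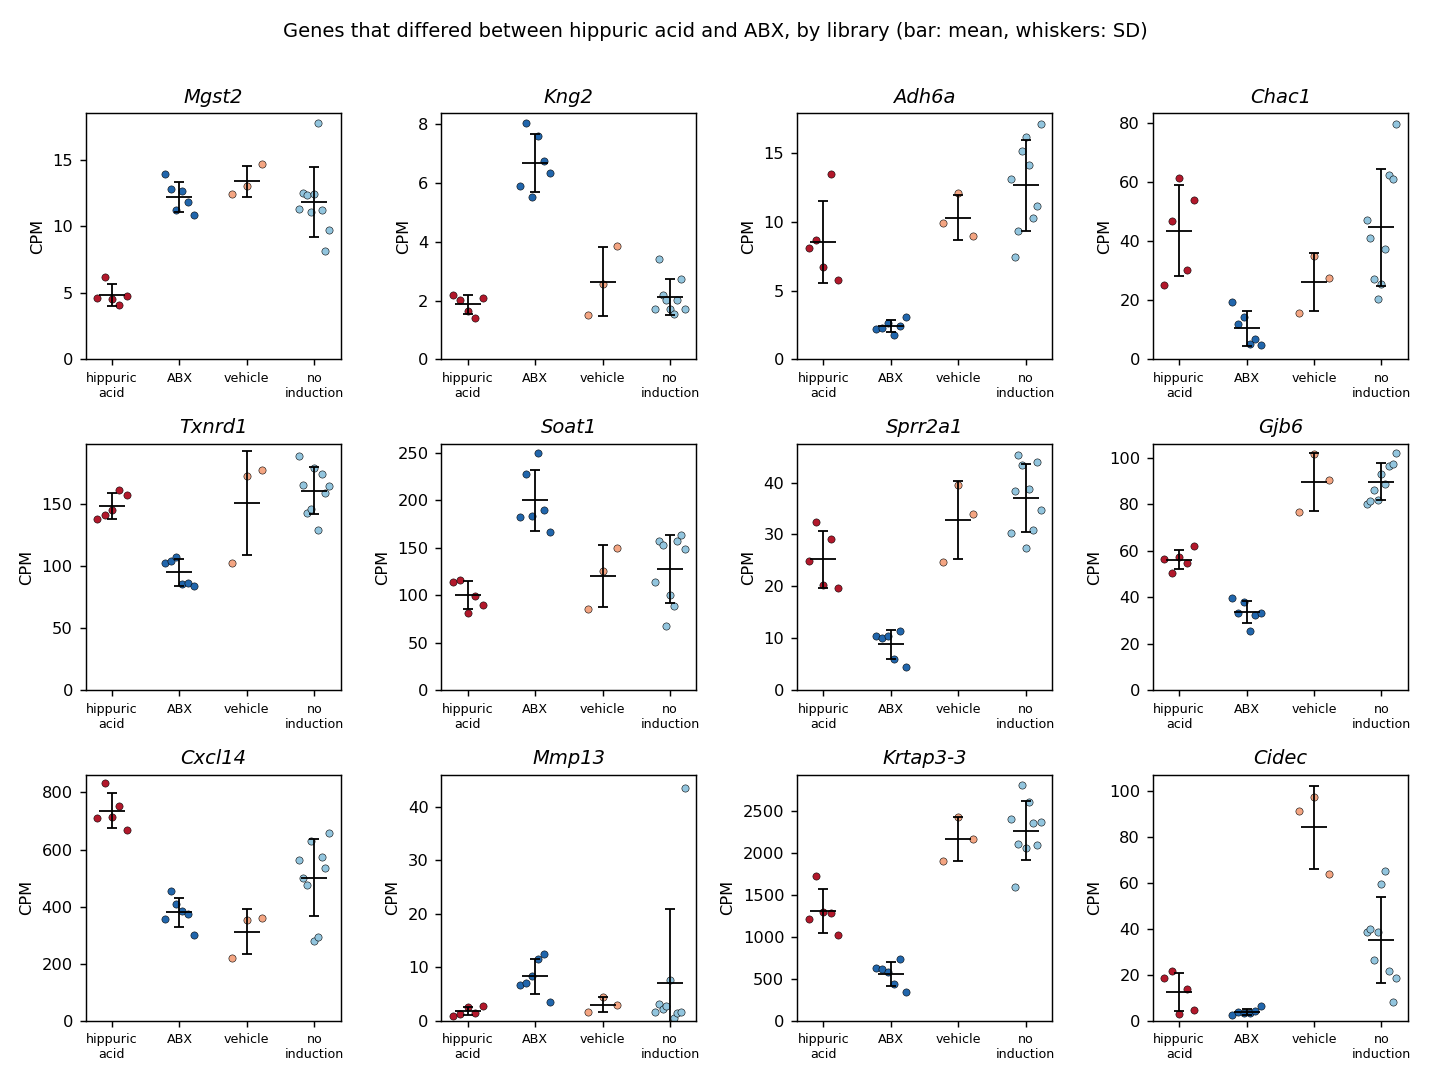
CPM per library of 12 genes named in the text, with a separate axis for each gene and groups from left to right hippuric acid (n = 5), ABX (n = 6), vehicle (n = 3) and no-induction (n = 9). Points are libraries and bars are group means. In Mgst2 hippuric acid skin is the group that stands apart, in Kng2, Adh6a, Sprr2a1 and Gjb6 the ABX libraries lie beyond every hippuric acid library, and Cidec is spread over the hippuric acid libraries.

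Clock genes were lower in hippuric acid skin than in ABX skin. Of 21 clock genes 10 were lower, 1 was higher and 10 were not called, with a median of -0.56, and the difference of the 2 effects also called 10 lower and 1 higher (median -0.69). Among the 10 lower were the repressors Per2, Per3, Cry2, Nr1d2, Bhlhe41 and Ciart, and Dbp, Tef and Hlf, the factors that pass the rhythm on through D-box elements. Directly between 10 and 12 were lower whichever library was left out, and in the difference between 8 and 11, with 4 under a replicate block and 5 in a fit of all 38 libraries.

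The period gene Per2 had 17.4, 12.3, 15.8, 12.2 and 15.4 CPM in hippuric acid skin, against 23.4 to 36.2 CPM (median 31.9) in ABX skin. Hippuric acid skin lay wholly under ABX skin (log2 fold change -1.11 ± 0.12, adjusted p = 0.000278). The controls were nearer to hippuric acid skin, with 16.9, 15.5 and 22.1 CPM in vehicle skin and 9.26 to 23.5 CPM (median 15.6) in no-induction skin. Tef, a rhythmic transcription factor, had 136, 135, 147, 117 and 129 CPM in hippuric acid skin, against 202 to 253 CPM (median 225) in ABX skin. There was no overlap (log2 fold change -0.80 ± 0.08, adjusted p = 0.000109). The gene moved in opposite directions against the controls, -0.72 ± 0.11 (adjusted p = 0.00208) in hippuric acid skin and 0.33 ± 0.10 (adjusted p = 0.0153) in ABX skin.

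Bhlhe41 (Dec2), which competes with the activators for their binding sites, had 20.3, 21.2, 26.1, 21.1 and 17.9 CPM in hippuric acid skin, against 34.5 to 51.7 CPM (median 44.7) in ABX skin. It was apart by group as well (log2 fold change -1.07 ± 0.12, adjusted p = 0.000266). Its calls against the controls were opposite, -0.69 ± 0.14 (adjusted p = 0.0123) in hippuric acid skin and 0.59 ± 0.14 (adjusted p = 0.00364) in ABX skin. Dbp had 15.3, 19.5, 25.6, 13.2 and 25.2 CPM in hippuric acid skin, against 28.4 to 40.4 CPM (median 37.2) in ABX skin. Every hippuric acid library was the lower (log2 fold change -0.89 ± 0.17, adjusted p = 0.00485). Here hippuric acid skin was the group that differed from its control, -1.57 ± 0.22 (adjusted p = 0.00185), with -0.34 ± 0.13 (adjusted p = 0.0563) in ABX skin. Ciart, a repressor of the activator pair, had 8.28, 6.8, 10.1, 6.23 and 8.3 CPM in hippuric acid skin, against 10.3 to 20.3 CPM (median 15.9) in ABX skin. These values did not overlap (log2 fold change -0.99 ± 0.16, adjusted p = 0.00221). Its effect against vehicle was -0.97 ± 0.17 (adjusted p = 0.00461), and that of ABX was 0.10 ± 0.13 (adjusted p = 0.567).

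Per3 (-0.67 ± 0.11, adjusted p = 0.00237), Nr1d2 (-0.66 ± 0.09, adjusted p = 0.000599) and Cry2 (-0.56 ± 0.09, adjusted p = 0.00201) were lower too, each with all hippuric acid libraries under all ABX libraries. In Hlf (-0.59 ± 0.13, adjusted p = 0.00927) 4 of 5 libraries were. The activator Arntl (Bmal1) had 40.2, 41.1, 36.7, 39.9 and 35.7 CPM in hippuric acid skin, against 23.1 to 40.4 CPM (median 30.4) in ABX skin, and these ranges overlapped (log2 fold change 0.32 ± 0.11, adjusted p = 0.0717, not called). Csnk1e, a kinase that marks PER proteins for decay, had 86.1, 92, 113, 96.1 and 100.3 CPM in hippuric acid skin, against 67.5 to 82.3 CPM (median 77.9) in ABX skin. It was the member called higher (log2 fold change 0.33 ± 0.08, adjusted p = 0.013). Per1 was not called directly (-0.72 ± 0.33, adjusted p = 0.165). In the difference of the 2 effects it was, -1.73 ± 0.38 (adjusted p = 0.0237). Clock, Npas2, Cry1, Nr1d1, Nfil3, Bhlhe40, Rora and Csnk1d were not called. Per1, Tef, Bhlhe41 and Nr1d2 were among the 21 genes with opposite calls against the 2 controls.

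**Figure D4:**
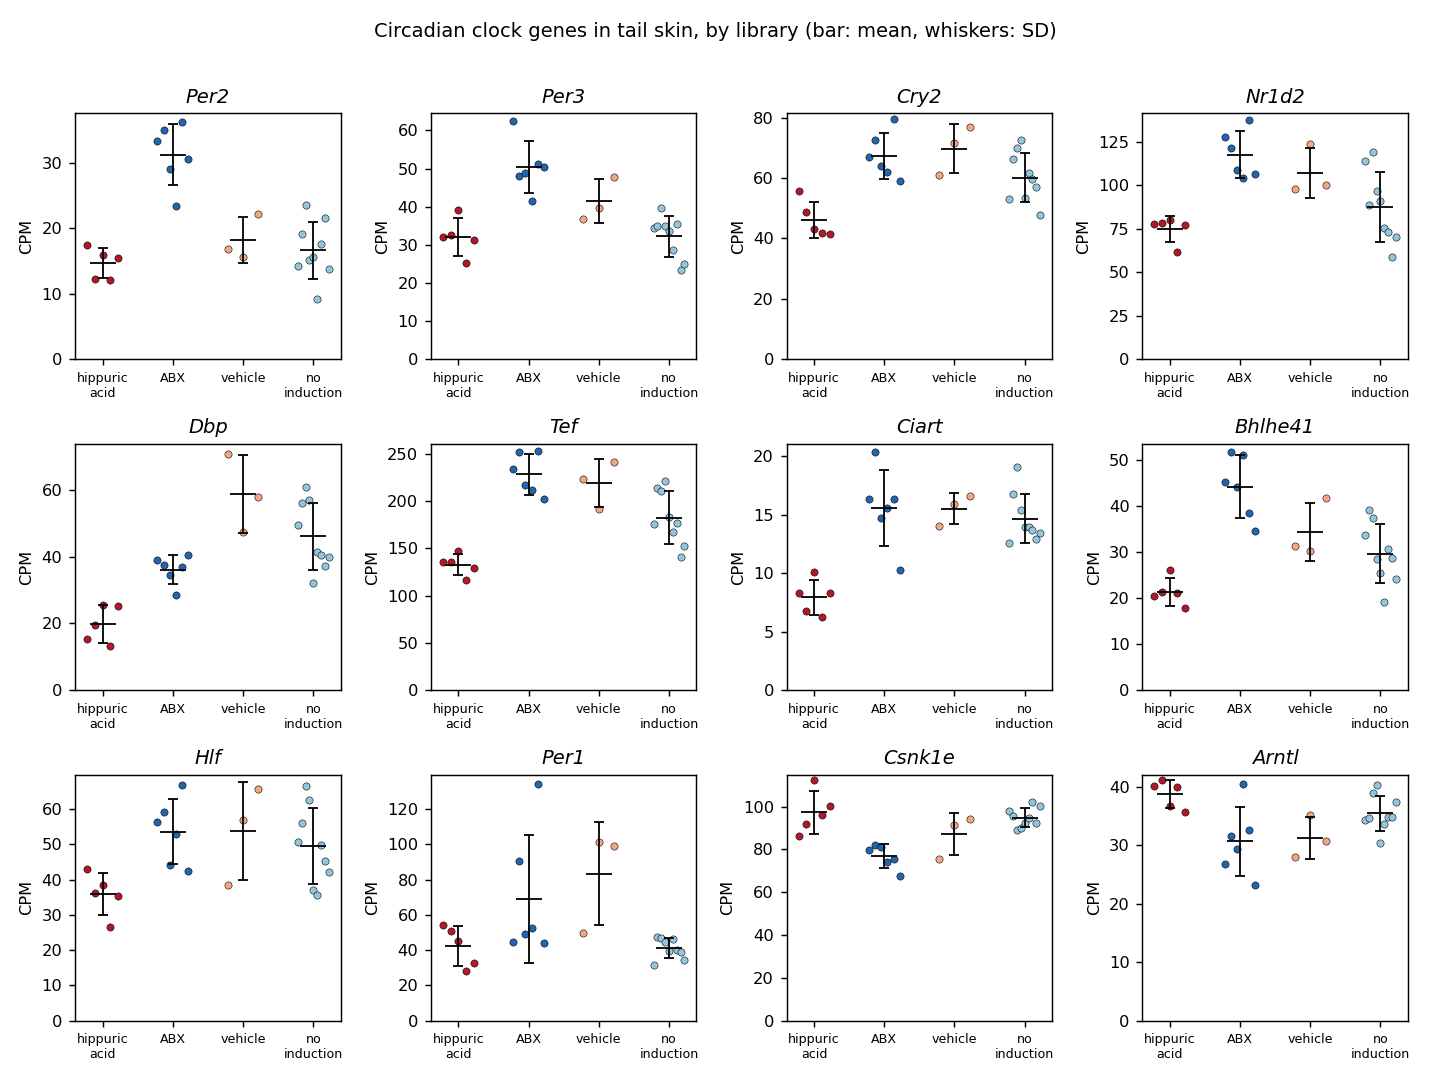
CPM per library of 12 clock genes in hippuric acid, ABX, vehicle and no-induction skin, with a separate axis for each gene; points are libraries and bars group means. In Per2, Per3, Cry2, Nr1d2, Dbp, Tef, Ciart and Bhlhe41 the 5 hippuric acid libraries all lie under the 6 ABX libraries, and Arntl and Csnk1e sit the other way round on average.

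Promoters of 4 of these genes are printed because they hold the elements through which the loop is known to act. The E-box CACGTG, which Clock and Arntl bind, was searched in the 250 bases before each start, as was the D-box TTATGTAA, which Dbp, Tef and Hlf bind, both on either strand, in RefSeq promoters of GRCm38.p6. Of the 10 clock genes that were lower 8 had an entry, 3 with an E-box (Tef, Ciart and Bhlhe41) and 1 with a D-box (Per3), and of the 10 not called 8 had an entry, 2 with an E-box (Per1 and Cry1). Over all 32851 promoters 6.02% held the E-box and 0.819% the D-box. Per3 lies at chr4:151044666-151044915 on the minus strand and Tef has starts after chr15:81802423-81802672 and chr15:81811164-81811413 on the plus strand. Ciart lies at chr3:95882229-95882478 and Bhlhe41 at chr6:145865421-145865670, both on the minus strand. Sequences run 5′ to 3′ on the strand of the gene and end at the base before the start, with the matched elements in capitals.
Per3: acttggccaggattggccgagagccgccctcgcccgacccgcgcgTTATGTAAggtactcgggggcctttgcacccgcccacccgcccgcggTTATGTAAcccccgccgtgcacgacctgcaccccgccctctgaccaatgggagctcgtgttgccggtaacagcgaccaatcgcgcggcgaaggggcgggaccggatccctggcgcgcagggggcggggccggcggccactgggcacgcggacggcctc
Tef, first start: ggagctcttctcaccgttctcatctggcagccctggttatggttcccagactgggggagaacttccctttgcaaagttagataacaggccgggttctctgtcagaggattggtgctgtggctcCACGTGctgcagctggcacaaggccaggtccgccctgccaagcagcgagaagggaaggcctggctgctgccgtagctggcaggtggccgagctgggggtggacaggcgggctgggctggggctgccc
Tef, second start: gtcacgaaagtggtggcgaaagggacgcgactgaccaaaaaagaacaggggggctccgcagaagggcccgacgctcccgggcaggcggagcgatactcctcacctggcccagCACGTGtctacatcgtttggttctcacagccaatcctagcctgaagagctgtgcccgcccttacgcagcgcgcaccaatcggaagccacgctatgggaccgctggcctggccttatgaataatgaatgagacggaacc
Ciart: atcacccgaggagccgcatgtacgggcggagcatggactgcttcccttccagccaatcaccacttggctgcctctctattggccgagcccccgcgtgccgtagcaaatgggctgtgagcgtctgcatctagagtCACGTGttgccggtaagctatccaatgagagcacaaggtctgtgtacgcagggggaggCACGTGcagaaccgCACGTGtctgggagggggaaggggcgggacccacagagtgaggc
Bhlhe41: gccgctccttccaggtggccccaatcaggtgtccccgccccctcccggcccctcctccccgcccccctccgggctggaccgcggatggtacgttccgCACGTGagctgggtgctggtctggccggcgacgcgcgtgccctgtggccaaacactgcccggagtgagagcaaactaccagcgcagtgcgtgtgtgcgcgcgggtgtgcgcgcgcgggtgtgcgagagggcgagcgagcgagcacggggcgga
Per3 holds 2 D-boxes, Ciart 3 E-boxes, and Bhlhe41 and each Tef promoter 1 E-box. A match is a stretch of letters, and no binding was measured.

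Glucocorticoid-induced genes were mixed, with 2 of 21 higher and 3 lower (14.3%; 1 lower without hippuric acid 2, 3, 4 or 5 or ABX 2). Tsc22d3 (Gilz), which glucocorticoids induce in most tissues, had 150.4, 96.5, 72.4, 65.2 and 78.6 CPM in hippuric acid skin, against 127 to 355 CPM (median 178) in ABX skin. The lowest ABX library lay inside the hippuric acid range (log2 fold change -1.15 ± 0.32, adjusted p = 0.0352). The call was lost with hippuric acid 2, 3, 4 or 5 or ABX 2 or 6 left out (adjusted p up to 0.0838). Its 2 effects were opposite, -1.03 ± 0.26 (adjusted p = 0.0271) against vehicle and 1.11 ± 0.24 (adjusted p = 0.00321) against no-induction. Sgk1, a kinase of salt transport and cell survival, had 173, 133, 138, 113 and 114 CPM in hippuric acid skin, against 147 to 236 CPM (median 216) in ABX skin, in which 147 is ABX 6. Of 5 hippuric acid libraries 4 were under every ABX library (log2 fold change -0.65 ± 0.12, adjusted p = 0.00492). Fkbp5, a chaperone that damps the glucocorticoid receptor, was not called (-0.29 ± 0.35, adjusted p = 0.607). Glul, glutamine synthetase, was lower (-0.41 ± 0.13, adjusted p = 0.0439). That call was lost with hippuric acid 2, 3, 4 or 5 or ABX 1, 2, 3, 4 or 5 left out (adjusted p up to 0.11).

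Of the hair shaft genes a minority of the keratin-associated proteins were called higher in hippuric acid skin, and 0 of 14 hair shaft keratins. All 43 measured keratin-associated proteins, the matrix of the hair shaft, had a positive log2 fold change (median 1.32), and 15 were called, 0 of them lower. In the difference of the 2 effects 7 were higher (median 1.92). Against the controls the list was lower in ABX skin, with 39 of 43 called lower against no-induction (median -1.58), while hippuric acid against vehicle had 3 lower and 0 higher (median 0.11; 7 lower without vehicle 1, and 0 or 1 without hippuric acid 1 or 4 or vehicle 2 or 3). The family is made of near-identical copies whose reads the authors' counting could split, so single values are uncertain. The count of 15 was 7 to 9 without hippuric acid 2, 3, 4 or 5 or ABX 2 or 4, and 24 without ABX 1. The 7 of the difference became 1 to 4 without hippuric acid 3 or 5, ABX 2, vehicle 1 or 2 or no-induction 21 or 23, and 12 to 15 without ABX 1, 3 or 6 or no-induction 5.

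Krtap3-3 had 1215, 1723, 1288, 1279 and 1015 CPM in hippuric acid skin, against 345 to 738 CPM (median 598) in ABX skin. The groups did not overlap (log2 fold change 1.21 ± 0.18, adjusted p = 0.00142). Both stood under their controls, -0.73 ± 0.17 (adjusted p = 0.0182) and -2.01 ± 0.17 (adjusted p = 1.12e-06). The larger differences were in Krtap10-4 (2.15 ± 0.44, adjusted p = 0.0109), Krtap1-4 (2.14 ± 0.55, adjusted p = 0.0288) and Krtap5-4 (2.09 ± 0.35, adjusted p = 0.00341), each with all 5 hippuric acid libraries above all ABX libraries. Krtap1-4 was not called with hippuric acid 3, 4 or 5 left out (adjusted p up to 0.067). Of 14 hair shaft keratins 0 were called by edgeR, 6 had an unadjusted p under 0.05, DESeq2 called 2 and limma-voom 7, with a median of 1.05. Krt31, a keratin of the hair cortex, had 545, 589.9, 1088, 586 and 1079 CPM in hippuric acid skin, against 69.5 to 785 CPM (median 272) in ABX skin, and the ranges overlapped (log2 fold change 1.07 ± 0.53, adjusted p = 0.202). The inner root sheath keratin Krt71 had 1539, 1512, 2380, 2242 and 2804 CPM in hippuric acid skin, against 284 to 1736 CPM (median 787) in ABX skin, which overlapped as well (log2 fold change 1.32 ± 0.43, adjusted p = 0.067). Of 17 genes of the inner root sheath and companion layer edgeR called 1 higher and 0 lower (median 1.22), and 14 had an unadjusted p under 0.05. Between 0 and 8 were called higher as single libraries were left out. Tchh, trichohyalin of the inner root sheath, was the member of this list that was called (1.56 ± 0.43, adjusted p = 0.0353). It was lost with hippuric acid 3, 4 or 5 or ABX 3, 4 or 6 left out (adjusted p up to 0.0803).

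Regulators of the follicle were higher in 11 of 35 and lower in 0 (median 0.37), and 3 to 7 were higher without hippuric acid 3, 4 or 5 or ABX 2, 4 or 5. Bmp4, a signal of the dermal papilla, had 63.7, 54.2, 52.9, 52.8 and 46.1 CPM in hippuric acid skin, against 32 to 41.6 CPM (median 36.8) in ABX skin. No values overlapped (log2 fold change 0.52 ± 0.09, adjusted p = 0.00218). Ptch1, the hedgehog receptor that hedgehog signalling itself induces, had 103, 88.6, 89.7, 106 and 81 CPM in hippuric acid skin, against 59.3 to 76.1 CPM (median 66.1) in ABX skin. There was no overlap (log2 fold change 0.47 ± 0.08, adjusted p = 0.00292). Foxn1 (1.07 ± 0.26, adjusted p = 0.0202), Dlx3 (1.12 ± 0.29, adjusted p = 0.029) and Hoxc13 (0.75 ± 0.22, adjusted p = 0.0386), factors that switch on hair keratin genes, were higher. So were Sox21 (0.79 ± 0.23, adjusted p = 0.0419) and Notch1 (0.46 ± 0.12, adjusted p = 0.0201), which act in shaft differentiation. All 5 calls hung on single libraries. Foxn1 was not called with hippuric acid 5 left out (adjusted p up to 0.0523), and Notch1 with hippuric acid 4 left out (adjusted p up to 0.0607). Dlx3 was lost with hippuric acid 3, 4 or 5 or ABX 2 or 4 left out (adjusted p up to 0.0716). Hoxc13 was lost with hippuric acid 2, 3, 4 or 5 or ABX 1, 2 or 4 left out (adjusted p up to 0.0919). Sox21 was lost with hippuric acid 1, 3, 4 or 5 or ABX 1, 2, 3, 4 or 5 left out (adjusted p up to 0.0873). Pigment genes, which follow the hair cycle, were called in 0 of 19 higher and 1 lower. The melanosome protein Pmel averaged 28 ± 7.46 CPM in hippuric acid skin and 21.3 ± 10.8 CPM in ABX skin (SD, n = 5 and 6) and was not called (log2 fold change 0.38 ± 0.38, adjusted p = 0.537). Tyr, the first enzyme of melanin synthesis, was not called either (0.40 ± 0.43, adjusted p = 0.561).

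Epidermal genes that were called were lower more often than higher. Of 20 basal keratinocyte genes 9 were lower and 0 higher (median -0.28), and 15 were lower without ABX 6. Krt14, the acidic keratin of the basal layer, had 1847, 1884, 2084, 1618 and 1981 CPM in hippuric acid skin, against 2594 to 3789 CPM (median 3339) in ABX skin. All hippuric acid libraries lay below (log2 fold change -0.81 ± 0.10, adjusted p = 0.000584). Krt15, a keratin of basal cells and follicle stem cells, had 358, 433, 448, 351 and 374 CPM in hippuric acid skin, against 455 to 868 CPM (median 695) in ABX skin. Group values were apart (log2 fold change -0.82 ± 0.14, adjusted p = 0.00246). Lamb3, a chain of the laminin that anchors the basal layer, was lower as well (-0.83 ± 0.14, adjusted p = 0.00323). Krt5, the partner of Krt14, was lower (-0.61 ± 0.12, adjusted p = 0.00553) with 4 libraries below. In bulk skin fewer cells of a type and less RNA per cell cannot be told apart.

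Of 20 suprabasal keratins and desmosome genes 5 were lower (25%; 2 and 3 without hippuric acid 4 and 5) and 0 higher. Of 24 genes of epidermal barrier lipids 5 were lower (20.8%; 10 without ABX 6) and 1 higher. Of 40 cornified envelope genes 8 were lower (20%) and 4 higher (10%), with 5 lower without hippuric acid 4 or 5. Against the controls suprabasal genes were lower in 14 of 20 in hippuric acid skin and 12 of 20 in ABX skin. Cornified envelope genes were lower in 26 of 41 and 27 of 42, and 0 of either list were higher. Barrier lipid genes were lower in 14 of 24 and 11 of 24, with 0 and 1 higher. Csta1, a protease inhibitor of the cornified envelope, had 70.3, 87.8, 69.5, 73.1 and 78.7 CPM in hippuric acid skin, against 111 to 146 CPM (median 139.7) in ABX skin. It was apart by group (log2 fold change -0.84 ± 0.08, adjusted p = 0.000138). Krtdap, secreted by differentiating keratinocytes, had 508, 619.6, 437, 437 and 414 CPM in hippuric acid skin, against 671 to 999 CPM (median 796) in ABX skin. Both groups were apart (log2 fold change -0.80 ± 0.13, adjusted p = 0.00217). Lce1e (-0.65 ± 0.11, adjusted p = 0.00224) and Calm4, a calcium-binding protein of differentiating keratinocytes (-0.72 ± 0.12, adjusted p = 0.00236), followed. Lce1e was not called with all 38 or the 23 uninduced libraries in the fit. Lor, the main envelope protein, was lower (-0.71 ± 0.18, adjusted p = 0.021) but not called with hippuric acid 3, 4 or 5 left out (adjusted p up to 0.0585). Krt2, a keratin of the upper layers, had 3683, 3680, 3465, 2499 and 2887 CPM in hippuric acid skin, against 3261 to 6888 CPM (median 5853) in ABX skin. The lowest ABX value was that of ABX 6, and the ranges overlapped (log2 fold change -0.83 ± 0.17, adjusted p = 0.0068). Krt77, a type II keratin of epidermis, was lower (-1.24 ± 0.32, adjusted p = 0.0207) but not called with hippuric acid 4 or 5 left out (adjusted p up to 0.0533).

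Members of the Sprr2 family, small proline-rich envelope proteins of stressed epidermis, went the other way. Sprr2a1 had 24.9, 32.3, 20.2, 29 and 19.7 CPM in hippuric acid skin, against 4.51 to 11.4 CPM (median 10.3) in ABX skin. Hippuric acid skin was wholly above (log2 fold change 1.5 ± 0.22, adjusted p = 0.00162). It was near its control, -0.37 ± 0.19 (adjusted p = 0.221), while ABX against no-induction gave -2.06 ± 0.19 (adjusted p = 3.62e-06). Sprr2a3 (1.11 ± 0.24, adjusted p = 0.01) and Sprr2b (1.11 ± 0.21, adjusted p = 0.0053) were higher too, and these near-identical genes can share reads. Gjb6, the gap junction protein connexin 30, had 56.7, 50.5, 57.1, 54.6 and 61.9 CPM in hippuric acid skin, against 25.6 to 39.7 CPM (median 33.3) in ABX skin. It did not overlap (log2 fold change 0.72 ± 0.10, adjusted p = 0.00086). Both treatments lay under their controls, -0.67 ± 0.11 (adjusted p = 0.00317) and -1.41 ± 0.09 (adjusted p = 1.39e-07). Tgm1, the enzyme that crosslinks the envelope, was higher (0.41 ± 0.12, adjusted p = 0.0307) but not called with hippuric acid 3, 4 or 5 or ABX 4 or 5 left out (adjusted p up to 0.0786). Of 29 stress keratins and antimicrobial genes 6 were lower (3 without hippuric acid 3) and 2 higher. The defensin Defb6 had 49.2, 51.8, 38.5, 42 and 42.3 CPM in hippuric acid skin, against 76.3 to 152 CPM (median 106) in ABX skin. The libraries were apart (log2 fold change -1.31 ± 0.16, adjusted p = 0.000576).

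Sebaceous gland genes were lower in 14 of 20 and higher in 0 (median -0.50), the largest share of any list tested, with 12 to 15 lower as single libraries were left out. Soat1, which makes cholesterol esters, had 114, 116, 81.2, 99.3 and 89.9 CPM in hippuric acid skin, against 166 to 249.95 CPM (median 186) in ABX skin. No library overlapped (log2 fold change -1.01 ± 0.12, adjusted p = 0.000429). Mgst1, a glutathione transferase abundant in sebocytes, had 381, 321, 239.7, 267 and 271 CPM in hippuric acid skin, against 471 to 589 CPM (median 574) in ABX skin. No library overlapped (log2 fold change -0.92 ± 0.11, adjusted p = 0.00046). It was the member called in the difference of the 2 effects, -1.04 ± 0.18 (adjusted p = 0.00613). Cidea, which enlarges lipid droplets, had 101, 81.3, 71.4, 68.9 and 74.5 CPM in hippuric acid skin, against 127 to 154 CPM (median 140.2) in ABX skin. Ranges did not overlap (log2 fold change -0.82 ± 0.09, adjusted p = 0.000266). Krt79, a keratin of the gland's duct (-0.79 ± 0.13, adjusted p = 0.00213), and the lipid droplet coat gene Plin2 (-0.66 ± 0.12, adjusted p = 0.00314) were lower. Awat1, which makes wax esters, was lower too (-0.71 ± 0.18, adjusted p = 0.0201), though not with hippuric acid 4 left out (adjusted p up to 0.0526). Against the controls 2 of the list were lower in hippuric acid skin (4 without vehicle 1, and 1 without hippuric acid 3 or 4 or vehicle 2) and 5 were higher in ABX skin.

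Cholesterol synthesis genes were lower in 12 of 23 and higher in 0 (median -0.28). Msmo1, an oxidase that removes methyl groups from the sterol ring, had 413, 374, 299.7, 360.2 and 343 CPM in hippuric acid skin, against 456 to 550.3 CPM (median 491) in ABX skin. Hippuric acid skin was lower in every library (log2 fold change -0.48 ± 0.09, adjusted p = 0.00347). Mvd (-0.37 ± 0.07, adjusted p = 0.00351) and Cyp51 (-0.39 ± 0.08, adjusted p = 0.00491), enzymes along the pathway, had no overlap either. In the difference of the 2 effects edgeR, DESeq2 and limma-voom each called 0 of these 23, and 6 had an unadjusted p under 0.05 with edgeR.

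**Figure D5:**
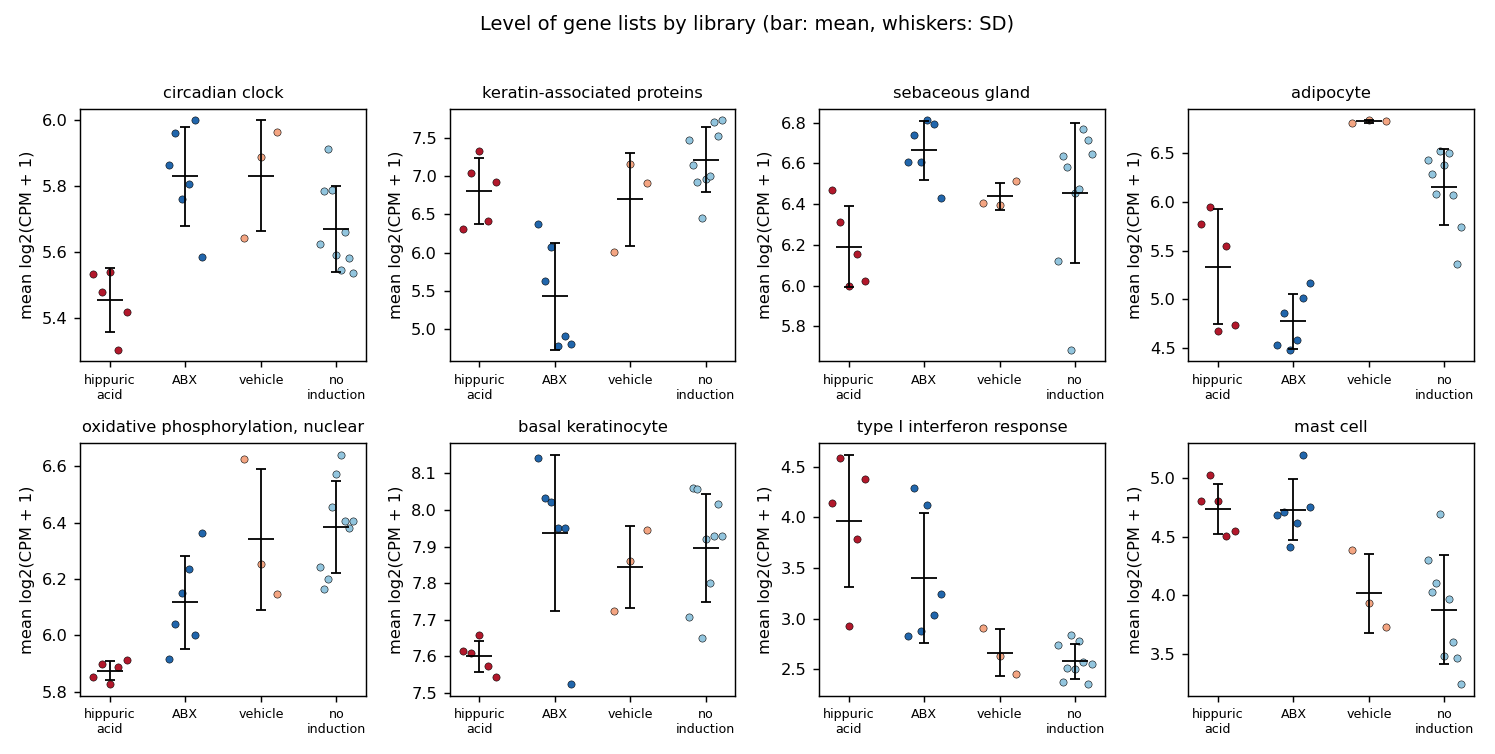
Mean log2(CPM + 1) of the members of 8 gene lists in each library (points; bars are group means), with hippuric acid, ABX, vehicle and no-induction skin from left to right. Clock levels of the 5 hippuric acid libraries (5.31 to 5.54) lie under those of the ABX libraries (5.59 to 6.0). Keratin-associated protein levels are lower in ABX skin apart from 6.37 in ABX 1, above 6.31 in hippuric acid 1, and adipocyte levels are high in hippuric acid 1, 2 and 4.

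Adipocyte genes were low in both treatments and differed within hippuric acid skin. Against the controls 16 of the list were lower in hippuric acid skin (median -1.30) and 20 in ABX skin (median -1.0). Directly, 6 of 26 were higher in hippuric acid skin and 2 lower (median 0.49), with 21 at an unadjusted p under 0.05. The 6 became 0 to 2 without hippuric acid 1, 2 or 4 or ABX 1, 2, 3, 4 or 5, and 11 without ABX 6. In the difference of the 2 effects 0 of 27 were called, with a median of 0.05. Between vehicle and no-induction skin edgeR also called 0 of 27, but the median was 0.67 and 16 had an unadjusted p under 0.05. The direct rise was therefore not seen relative to the controls. Cidec, which builds the single large lipid droplet, had 18.4, 21.9, 2.86, 13.7 and 4.85 CPM in hippuric acid skin, against 2.3 to 6.28 CPM (median 3.55) in ABX skin. Hippuric acid 3 and 5 stood inside the ABX range (log2 fold change 1.65 ± 0.47, adjusted p = 0.0401). The gene was not called with hippuric acid 1, 2 or 4 or ABX 1, 2, 3, 4 or 5 left out (adjusted p up to 0.0882). Adipoq, adiponectin, had 29.4, 46.6, 8.05, 30.8 and 6.79 CPM in hippuric acid skin, against 3.52 to 15.9 CPM (median 5.47) in ABX skin, with the same overlap (log2 fold change 1.73 ± 0.59, adjusted p = 0.0751). Lep, leptin, was below the count filter in this comparison, with 1.18, 1.51, 0.053, 1.05 and 0.0485 CPM in hippuric acid skin, against 0 to 0.519 CPM (median 0.209) in ABX skin. Lipe, hormone-sensitive lipase (0.94 ± 0.25, adjusted p = 0.0293), was higher but not called with hippuric acid 1, 2 or 4 or ABX 3 or 4 left out (adjusted p up to 0.0674). Acvr1c, a receptor of adipocytes (2.0 ± 0.57, adjusted p = 0.0396), was lost with hippuric acid 1, 2 or 4 or ABX 1, 2, 3 or 4 left out (adjusted p up to 0.0839). Pck1, which makes the glycerol of stored fat (2.19 ± 0.63, adjusted p = 0.0409), was lost with hippuric acid 1, 2, 4 or 5 or ABX 1, 2, 3, 4 or 5 left out (adjusted p up to 0.0868). Thrsp, a driver of lipid synthesis (2.24 ± 0.64, adjusted p = 0.0358), was lost with hippuric acid 1, 2 or 4 or ABX 1, 2, 3, 4 or 5 left out (adjusted p up to 0.0822). Fasn, which builds fatty acids in adipocytes and sebocytes alike, was lower (-0.45 ± 0.11, adjusted p = 0.015), and Cidea is the other of the list called lower.

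Genes of the amino acid stress response, which ATF4 switches on when amino acids run short, were higher in 5 of 31 and lower in 3 (median 0.16), and 5 were higher and 1 lower in the difference of the 2 effects. The 5 of the difference became 1 without vehicle 1, and 2 or 3 without hippuric acid 2, 3, 4 or 5, ABX 2, 4 or 5, vehicle 2 or no-induction 11, 21, 22 or 23. Chac1, which breaks down glutathione, had 25.3, 46.8, 61.4, 30.2 and 54 CPM in hippuric acid skin, against 5.03 to 19.5 CPM (median 9.33) in ABX skin. The groups were apart (log2 fold change 2.04 ± 0.39, adjusted p = 0.0083). ABX skin was the one below its control, -2.08 ± 0.37 (adjusted p = 0.000863), with 0.74 ± 0.34 (adjusted p = 0.178) for hippuric acid. Cth, which makes cysteine, had 10.6, 10.8, 17.5, 14.6 and 17.3 CPM in hippuric acid skin, against 3.76 to 9.22 CPM (median 5.55) in ABX skin. The groups did not overlap (log2 fold change 1.20 ± 0.25, adjusted p = 0.00871). Atf5, a partner of ATF4 (0.68 ± 0.11, adjusted p = 0.00218), Aldh18a1 of proline synthesis (0.40 ± 0.10, adjusted p = 0.0143) and Mthfd2 of the mitochondrial folate path (0.67 ± 0.18, adjusted p = 0.0261) were higher. The call of Mthfd2 was lost with hippuric acid 4 or 5 left out (adjusted p up to 0.0755). Psat1 of serine synthesis had 50.6, 66.3, 51.6, 60.6 and 54.6 CPM in hippuric acid skin, against 68.8 to 132 CPM (median 83.6) in ABX skin. It was lower in all 5 libraries (log2 fold change -0.67 ± 0.14, adjusted p = 0.00989), as was Psph of the same path (-0.48 ± 0.07, adjusted p = 0.00106).

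Antioxidant genes, central to the series' question, were called lower more often than higher directly and against the controls. In the difference of the 2 effects they were not. Of 36 antioxidant enzymes 9 were lower (25%) and 2 higher, and of 40 NRF2 targets and glutathione genes 11 were lower (27.5%) and 3 higher, with medians of -0.09 and -0.12. In the difference of the 2 effects 0 antioxidant enzymes were called lower and 1 higher (median -0.11). Of the NRF2 and glutathione genes 2 were lower and 2 higher there (median -0.09). Against vehicle 10 antioxidant enzymes were lower and 1 higher in hippuric acid skin, and against no-induction 12 and 1 in ABX skin. For the NRF2 and glutathione genes it was 6 and 2 in hippuric acid skin, and 6 and 4 in ABX skin. Sod1, the cytosolic superoxide dismutase, had 74.8, 75.3, 69, 66.2 and 61.2 CPM in hippuric acid skin, against 80.9 to 122 CPM (median 96.9) in ABX skin. All hippuric acid libraries were below (log2 fold change -0.53 ± 0.10, adjusted p = 0.00323). Prdx1 (-0.40 ± 0.06, adjusted p = 0.00162) and Prdx4 (-0.45 ± 0.08, adjusted p = 0.00259), peroxiredoxins that remove peroxide, and the glutathione transferase Gstm5 (-0.65 ± 0.09, adjusted p = 0.00086) had no overlap either. Gpx4, which protects membranes from lipid peroxides, was lower (-0.42 ± 0.09, adjusted p = 0.0104). Catalase, Cat, was lower too (-0.35 ± 0.09, adjusted p = 0.0234), though not with hippuric acid 3, 4 or 5 left out (adjusted p up to 0.0616). Neither gene was called with all 38 or the 23 uninduced libraries in the fit, nor Gpx4 with a replicate block. Sod2, the mitochondrial dismutase, had 99.8, 92.3, 95.8, 101 and 104 CPM in hippuric acid skin, against 104 to 121 CPM (median 111) in ABX skin without being called (log2 fold change -0.20 ± 0.07, adjusted p = 0.0567).

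Txnrd1, thioredoxin reductase and an NRF2 target, went up, with 138, 141, 145, 161 and 158 CPM in hippuric acid skin, against 83.8 to 107 CPM (median 94.3) in ABX skin. It did not overlap (log2 fold change 0.63 ± 0.08, adjusted p = 0.000663). Hippuric acid skin was at its control's level, -0.03 ± 0.16 (adjusted p = 0.935), while ABX skin was below its own, -0.75 ± 0.09 (adjusted p = 2.9e-05). Ggct, of glutathione breakdown, had 54.2, 62.4, 53.7, 52.8 and 46.4 CPM in hippuric acid skin, against 74.8 to 130.2 CPM (median 106) in ABX skin. These values did not overlap (log2 fold change -0.98 ± 0.12, adjusted p = 0.000429). Rgn, regucalcin, a calcium-binding lactonase, was lower (-1.15 ± 0.14, adjusted p = 0.000547). Nfe2l2 (NRF2) itself was higher (0.32 ± 0.10, adjusted p = 0.0483) but not called with hippuric acid 1, 2, 3 or 5 or ABX 2, 3, 4 or 5 left out (adjusted p up to 0.122). The NRF2 targets Hmox1 (-0.34 ± 0.27, adjusted p = 0.42) and Nqo1 (-0.13 ± 0.11, adjusted p = 0.443) were not called. Of 30 genes of reactive oxygen production 3 were higher and 2 lower, a share near that of all genes, and inducible nitric oxide synthase, Nos2, was not called (0.04 ± 0.30, adjusted p = 0.953).

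Of 30 genes of p38 and other stress kinases 5 were higher (16.7%) and 0 lower, with a median of 0.03, and 3 were higher without hippuric acid 2, 3 or 5 or ABX 4. In the difference of the 2 effects edgeR called 0 of 30 (median 0.03). Against the controls 0 were higher and 3 lower in hippuric acid skin, and 5 higher and 8 lower in ABX skin. Gadd45b, which activates the kinases above p38, had 26.9, 33.7, 21.4, 24.6 and 29.2 CPM in hippuric acid skin, against 14.9 to 20.2 CPM (median 18.1) in ABX skin. The hippuric acid libraries were all above (log2 fold change 0.61 ± 0.11, adjusted p = 0.00393). Gadd45a (0.55 ± 0.12, adjusted p = 0.0086) and the small heat shock protein Hspb1 (0.34 ± 0.08, adjusted p = 0.0133) were higher with no overlap. Hspb1 was not called with all 38 or the 23 uninduced libraries in the fit, a replicate block or the adipocyte level as covariate. Mapk14, p38 alpha, had 104, 108, 104, 100.1 and 98.1 CPM in hippuric acid skin, against 90.2 to 113 CPM (median 103) in ABX skin. It was not called (log2 fold change -0.02 ± 0.06, adjusted p = 0.886). Hsph1, a co-chaperone of HSP70, was higher (0.65 ± 0.13, adjusted p = 0.00701). It had opposite effects, 0.51 ± 0.14 (adjusted p = 0.039) against vehicle and -0.45 ± 0.13 (adjusted p = 0.0143) against no-induction.

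Nuclear genes of oxidative phosphorylation were lower in 33 of 73 and higher in 0, though by little (median -0.25), and ribosomal protein genes were lower in 22 of 69 (31.9%, median -0.19). In the difference of the 2 effects 2 and 1 of them were called, and between 0 and 4 and between 1 and 2 as single libraries were left out. Against the controls both lists were lower in both treatments, with 0 higher. Oxidative phosphorylation genes were lower in 41 of 73 in hippuric acid skin and 31 in ABX skin. Ribosomal protein genes were lower in 42 of 69 and in 32. Cox6b1, a subunit of cytochrome oxidase, had 57.7, 59.7, 56.7, 58.8 and 59.4 CPM in hippuric acid skin, against 77.8 to 102 CPM (median 85.8) in ABX skin. Groups did not overlap (log2 fold change -0.60 ± 0.08, adjusted p = 0.000588). Atp5l, a subunit of ATP synthase, was lower (-0.68 ± 0.10, adjusted p = 0.00112). The ribosomal genes Rpl10 (-0.82 ± 0.08, adjusted p = 0.000103) and Rps29 (-1.11 ± 0.15, adjusted p = 0.00116) were among the steeper falls, in a family whose copies can share reads.

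Within these lists the shorter genes had the lower medians. Of the 16 oxidative phosphorylation genes shorter than 1000 bases of exon 10 were called (median -0.39), against 23 of the 57 longer ones (median -0.22). Among the 13 genes of the mitochondrial genome only mt-Atp8 (204 bases, -1.13), mt-Nd4l (297 bases, -0.68) and mt-Nd3 (348 bases, -0.77) were called, all lower and the shortest of the 13. The other 10, of 519 to 1824 bases, ranged from -0.23 to 0.32, and mt-Nd4 gave 0.25 ± 0.10, adjusted p = 0.0899. Over all genes, split by exon length into 4 classes of equal size, the median was -0.048 in the shortest class and 0.042 in the longest. Of 338 genes under 1000 bases 34 were called higher and 59 lower directly (all genes: 970 and 1127 of 14003). Against vehicle 98 of 347 such genes were lower and 6 higher in hippuric acid skin (median -0.447). In ABX against no-induction skin 150 of 351 were lower and 8 higher (median -0.366). The part of length in these results was not tested.

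Interferon-stimulated genes were raised in both treatments and were not called between them. Against the controls 32 of the type I interferon list were higher in hippuric acid skin (median 1.55) and 39 in ABX skin (median 1.15). The 32 became 7 and 10 without vehicle 3 and 2, and 20 or 21 without hippuric acid 1, 2 or 5 or vehicle 1. Directly edgeR called 0 of 44, with 5 at an unadjusted p under 0.05, DESeq2 2 and limma-voom 0, and the median was 0.58. Ifit1, an antiviral RNA-binding protein, had 35.9, 64.4, 7.15, 21.9 and 59.4 CPM in hippuric acid skin, against 4.26 to 46.2 CPM (median 6.68) in ABX skin. The ranges overlapped widely (log2 fold change 1.17 ± 0.77, adjusted p = 0.335). Ifi27l2a (1.31 ± 0.48, adjusted p = 0.0925) and Isg15 (1.26 ± 0.61, adjusted p = 0.195) were not called either. Cxcl10, a chemokine for T cells that interferon gamma induces, had 1.43, 1.94, 1.38, 1.19 and 2.13 CPM in hippuric acid skin, against 0.689 to 1.13 CPM (median 0.842) in ABX skin. It was the member of its list of 20 that was called. Every hippuric acid value was above (log2 fold change 0.88 ± 0.24, adjusted p = 0.0262). The level is near 1 CPM, and the call was lost with hippuric acid 2 or 5 or ABX 3 left out (adjusted p up to 0.0725).

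Macrophage and dendritic cell genes were higher in 8 of 34 (23.5%) and lower in 1 (median 0.30). In the difference of the 2 effects 0 of 35 were called (median 0.13). Itgam, the integrin CD11b, had 28.5, 30.03, 30.3, 32 and 29.6 CPM in hippuric acid skin, against 12 to 21.8 CPM (median 18.5) in ABX skin. No values overlapped (log2 fold change 0.71 ± 0.12, adjusted p = 0.00246). C1qb of complement (0.46 ± 0.10, adjusted p = 0.00929) and the mannose receptor Mrc1 (0.58 ± 0.13, adjusted p = 0.0124) were higher, as was Retnla, secreted by alternatively activated macrophages (1.31 ± 0.32, adjusted p = 0.0189). Itgam, C1qb, Mrc1 and Retnla were not called with all 38 libraries in the fit. C1qb, Mrc1 and Retnla were also lost with the adipocyte level as covariate, C1qb and Mrc1 with the 23 uninduced libraries, and Mrc1 with a replicate block. The macrophage markers Adgre1 and Csf1r overlapped, at 25.2 to 32.0 and 162 to 225 CPM in hippuric acid skin and 15.8 to 31.9 and 159 to 236 CPM in ABX skin. Mast cell genes were higher against the controls in 10 of the list in hippuric acid skin and 15 in ABX skin. The 10 became 4 to 6 without hippuric acid 1, 2 or 3 or vehicle 2 or 3, and 17 without vehicle 1. Between the treatments the list was called by edgeR in 0 of 19, with 1 at an unadjusted p under 0.05, DESeq2 1 and limma-voom 0. The mast cell chymase Cma1 had 191, 230.2, 223, 164 and 154 CPM in hippuric acid skin, against 219.6 to 296 CPM (median 230.1) in ABX skin (log2 fold change -0.33 ± 0.11, adjusted p = 0.0536).

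Acute phase and complement genes were higher in 6 of 19 (31.6%) and lower in 1. In the difference of the 2 effects 0 of 23 were higher and 1 lower. Against the controls 3 of 22 were higher and 4 lower in hippuric acid skin, and 3 of 21 higher and 6 lower in ABX skin. Saa1, serum amyloid A, had 5.06, 6.94, 4.45, 6.82 and 6.5 CPM in hippuric acid skin, against 0.378 to 2.8 CPM (median 1.18) in ABX skin. There was no overlap (log2 fold change 2.04 ± 0.34, adjusted p = 0.00266). Both groups lay under their controls, -1.66 ± 0.39 (adjusted p = 0.0216) and -3.58 ± 0.49 (adjusted p = 0.000132). Cd55, which shields cells from complement, had 123, 131, 106, 106 and 93.2 CPM in hippuric acid skin, against 66.1 to 88.8 CPM (median 77.9) in ABX skin. There was no overlap (log2 fold change 0.52 ± 0.10, adjusted p = 0.00582). Properdin, Cfp, was higher (0.51 ± 0.11, adjusted p = 0.00943). Orm1, orosomucoid, was lower (-0.75 ± 0.23, adjusted p = 0.048), though not with hippuric acid 1, 3, 4 or 5 or ABX 1, 2, 3, 4 or 5 left out (adjusted p up to 0.105).

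Dermal genes went both ways, with 7 of 53 higher and 7 lower (13.2% each, median 0.00; 3 and 4 lower without hippuric acid 4 and 5). Cxcl14, a chemokine of skin, had 712, 832, 715, 751 and 668 CPM in hippuric acid skin, against 301 to 455 CPM (median 379) in ABX skin. The libraries were apart (log2 fold change 0.94 ± 0.10, adjusted p = 0.000151). Effects were 1.24 ± 0.17 (adjusted p = 0.00157) against vehicle and -0.39 ± 0.17 (adjusted p = 0.0949) against no-induction. Spon2, a matrix protein that binds microbial products, had 37.7, 56, 30.3, 42.9 and 28 CPM in hippuric acid skin, against 12.1 to 21.2 CPM (median 14) in ABX skin. Group values were apart (log2 fold change 1.38 ± 0.19, adjusted p = 0.00112). Adamts4, which cuts proteoglycans, had 8.79, 6.52, 7.1, 11 and 7.03 CPM in hippuric acid skin, against 3.05 to 3.88 CPM (median 3.5) in ABX skin. Both groups were apart (log2 fold change 1.21 ± 0.15, adjusted p = 0.000565). All 3 were called in the difference of the 2 effects, at 1.64, 1.90 and 1.52, and they are not members of the list of 53. Of that list 0 were called higher and 0 lower in the difference (median 0.06). Fibroblast genes higher with no overlap were Mfap4 of elastic fibres (0.63 ± 0.08, adjusted p = 0.000565) and Ogn, a small proteoglycan (0.85 ± 0.13, adjusted p = 0.00174). Mfap4 and Ogn were not called with all 38 or the 23 uninduced libraries in the fit. Dpp4 (0.96 ± 0.21, adjusted p = 0.0104) and Pi16 (0.73 ± 0.15, adjusted p = 0.00595), which mark fibroblasts of fascia and adventitia, were higher in every library too.

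Lower among dermal genes were Mmp2, a gelatinase (-0.64 ± 0.12, adjusted p = 0.00489), and Ccn2, a matricellular growth factor (-0.98 ± 0.20, adjusted p = 0.00757). So were Pdgfra, the fibroblast receptor for PDGF (-0.39 ± 0.10, adjusted p = 0.0198), and Ccn3, a relative of Ccn2 (-0.93 ± 0.26, adjusted p = 0.0358). Pdgfra was not called with hippuric acid 4 left out (adjusted p up to 0.0579), nor Ccn3 with hippuric acid 2, 4 or 5 or ABX 2, 4, 5 or 6 left out (adjusted p up to 0.0858). Ccn2 and Mmp2 were called higher in ABX against no-induction, 1.56 ± 0.17 (adjusted p = 1.47e-05) and 0.89 ± 0.16 (adjusted p = 0.000571), and not in hippuric acid against vehicle, 0.62 ± 0.20 (adjusted p = 0.0646) and 0.12 ± 0.18 (adjusted p = 0.704). Mmp13, a collagenase, had 0.971, 1.32, 2.49, 1.42 and 2.67 CPM in hippuric acid skin, against 3.53 to 12.5 CPM (median 7.68) in ABX skin. All 5 hippuric acid libraries lay under it (log2 fold change -2.23 ± 0.35, adjusted p = 0.00208). Mmp13 was not called with all 38 or the 23 uninduced libraries in the fit. The controls spread widely, with 1.62, 4.39 and 2.9 CPM in vehicle skin and 0.439 to 43.4 CPM (median 2.26) in no-induction skin.

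Of 31 Hox genes, which keep positional identity in skin, 4 were higher (12.9%; 2 without hippuric acid 2, 3, 4 or 5 or ABX 2 or 4) and 2 lower (6.5%), and 3 and 1 were called in the difference of the 2 effects. The 3 became 0 or 1 without hippuric acid 3, 4 or 5, ABX 2 or 4, vehicle 1 or 2 or no-induction 23, and the 1 became 0 without hippuric acid 5 or vehicle 2 or 3. Hoxa9 had 54.8, 47, 43.2, 46.5 and 42.7 CPM in hippuric acid skin, against 61.4 to 77 CPM (median 69.9) in ABX skin. The libraries were apart (log2 fold change -0.59 ± 0.08, adjusted p = 0.000588). Hoxd11 had 10.5, 11, 13.6, 12.1 and 13 CPM in hippuric acid skin, against 6.12 to 9.62 CPM (median 7.21) in ABX skin, and was higher in all 5 libraries (log2 fold change 0.68 ± 0.13, adjusted p = 0.0044). Hoxb2 was higher as well (0.71 ± 0.17, adjusted p = 0.0153). Hoxb13, a gene of the tail end of the body, was raised over the controls in both treatments, 2.28 ± 0.24 (adjusted p = 0.000617) and 1.74 ± 0.26 (adjusted p = 0.000183), and was not called between them (0.18 ± 0.10, adjusted p = 0.212).

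Genes of retinoid and alcohol metabolism were lower in 8 of 24 (33.3%) and higher in 3, with 4 or 5 lower without hippuric acid 4 or 5 or ABX 4. In the difference of the 2 effects 0 of 24 were lower and 2 higher. Lrat, which stores retinol as esters, was higher (1.25 ± 0.23, adjusted p = 0.00387). Dgat1, which esterifies retinol and makes triglyceride, had 66.6, 60.8, 44.5, 55.8 and 57.9 CPM in hippuric acid skin, against 81.1 to 108 CPM (median 101) in ABX skin. Its groups were apart (log2 fold change -0.80 ± 0.10, adjusted p = 0.000565). Rdh12, a retinal reductase, was lower as well (-0.50 ± 0.08, adjusted p = 0.00249). Of 14 genes of hippurate and glycine conjugation 1 was higher, Acsm3, an acyl-CoA synthetase for medium-chain acids (0.86 ± 0.22, adjusted p = 0.0232). It was not called with hippuric acid 4 or 5 or ABX 2 left out (adjusted p up to 0.0595). The 1 lower was Abcc4, an exporter of organic anions (-0.57 ± 0.12, adjusted p = 0.0082). Of 12 genes around the aryl hydrocarbon receptor 3 were lower (6 without ABX 6) and 1 higher, and Aldh3a1, a target of that receptor, gave -0.41 ± 0.10, adjusted p = 0.0114.

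The largest rises were in genes of low level. Acta1, skeletal alpha actin, had 1.99, 3.16, 4.45, 2.52 and 1.55 CPM in hippuric acid skin, against 0 to 0.689 CPM (median 0.252) in ABX skin. Hippuric acid skin was wholly above (log2 fold change 3.11 ± 0.50, adjusted p = 0.00217). The other muscle markers did not follow, as 2 of 17 skeletal muscle genes were called. Mylpf, a fast myosin light chain, had 0.869, 0.614, 1.48, 1.1 and 1.16 CPM in hippuric acid skin, against 1.3 to 1.83 CPM (median 1.49) in ABX skin, and was not called (log2 fold change -0.57 ± 0.24, adjusted p = 0.123). Myh4, a fast myosin heavy chain, reached at most 0.378 CPM in hippuric acid skin and 0.54 CPM in ABX skin. Ckm, muscle creatine kinase, was the second of the 2 (1.57 ± 0.50, adjusted p = 0.0492) and was lost with hippuric acid 1, 2, 3 or 4 or ABX 1, 3, 4, 5 or 6 left out (adjusted p up to 0.122). Alox15, a lipoxygenase, was higher (2.72 ± 0.65, adjusted p = 0.0157), as was Cacna1i, a calcium channel subunit (2.24 ± 0.51, adjusted p = 0.015). Sptssb, a subunit of the first enzyme of sphingolipid synthesis, was higher (2.18 ± 0.49, adjusted p = 0.0139). So was Mup18, one of a near-identical family of urinary proteins (2.72 ± 0.81, adjusted p = 0.0471). Its call was lost with hippuric acid 1, 2, 4 or 5 or ABX 1, 2, 3, 4 or 5 left out (adjusted p up to 0.105).

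Besides Mmp13 and Kng2, the largest falls were in genes of low level. Kcnj10, an inward potassium channel, had 0.255, 0.0472, 0.689, 0.458 and 0.388 CPM in hippuric acid skin, against 0.984 to 2.13 CPM (median 1.64) in ABX skin. No library overlapped (log2 fold change -2.12 ± 0.43, adjusted p = 0.00583). Cfap57, a gene of cilia (-2.0 ± 0.34, adjusted p = 0.00259), and Hmga2, a chromatin protein of growing cells (-1.89 ± 0.43, adjusted p = 0.0118), were lower without overlap. Pzp, a protease inhibitor (-1.86 ± 0.31, adjusted p = 0.00248) and Mfsd13b (-1.65 ± 0.35, adjusted p = 0.00769) did not overlap either. The gasdermin Gsdma3 (-1.64 ± 0.34, adjusted p = 0.00751) and Lipn, a lipase of the upper epidermis (-1.5 ± 0.34, adjusted p = 0.0104), were lower with partial overlap. Idi2, an isomerase of isoprenoid synthesis, was lower (-2.08 ± 0.65, adjusted p = 0.0499) and was lost with hippuric acid 1, 2, 3 or 4 or ABX 1, 2, 3, 5 or 6 left out (adjusted p up to 0.107).

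Among the 10 genes with the smallest p in the difference of the 2 effects were Mgst2, Fam43a, Tef, Rgn, Kng2, Adh6a, Ggct, Ccdc92 and Adamts4. In Mgst2, Rgn, Ggct and Adamts4 the called effect was that of hippuric acid against vehicle (-1.46, -1.33, -1.40 and 1.17), and ABX against no-induction was not called (0.05, 0.34, -0.17 and -0.34). In Kng2, Adh6a, Fam43a and Ccdc92 it was the reverse, with ABX effects of 1.67, -2.39, -0.81 and -1.12 and hippuric acid effects that were not called (-0.49, -0.27, 0.03 and 0.58). Tef was called in both, in opposite directions. Fam43a had 53.2, 50.7, 52.7, 52.2 and 46.6 CPM in hippuric acid skin, against 29.8 to 38.8 CPM (median 33) in ABX skin. Its groups did not overlap.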

How the data were processed

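Bulk RNA-seq of tail skin was compared between 5 hippuric acid and 6 ABX libraries, grouped by their treatment label, with 3 vehicle and 9 no-induction libraries as controls. Libraries were made from Trizol-extracted RNA by oligo(dT) enrichment and a NEBNext Ultra kit, and read on a NovaSeq instrument, per the labels' protocols. The authors deposited 1 table of expected counts per gene. Bowtie2 2.2.8, HISAT2, StringTie 1.3.1 and DESeq2 are named in the submitters' processing notes, while build, counting program and strand are not given in the sources used here, so that overlapping and antisense genes could not be told apart. Values were rounded (16.2% of 19218 genes had a value that was not whole), and totals moved by 22.1 counts or fewer. The table has 19220 rows, of which 1 is incomplete and 1 lacks a symbol, and neither was used.

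Genes were tested with edgeR 4.0.16 in R 4.3.3 (TMM, default filter, robust quasi-likelihood F test, two-sided), each comparison on its own libraries, with Benjamini-Hochberg adjustment over all genes tested, and the difference of the 2 effects was fitted on all 23 libraries. SE of log2 fold changes come from the F statistic. Totals of 15.9 to 26.0 M counts limit precision for genes near 1 CPM. Sequences and starts come from RefSeq promoters of GRCm38.p6, and exon lengths from GENCODE M21. The fit had no replicate block, since nothing says that library numbers pair samples, and the 5 same-numbered pairs correlated at -0.416 to 0.319. No 2 libraries agreed within sampling noise. List genes without a row were not analysed here.

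The groups, gene lists and rules were chosen with earlier results of these data known. Genes were named by rule (the 10 largest rises and falls that were called and averaged at least 1 CPM, up to 4 members of each list with the smallest p, the 10 smallest p in the difference, and 14 fixed genes), and the others named were chosen after seeing their values. Some genes that the rule names are not reported here. The alternatives tried were RLE factors, no filter, a filter at 1 CPM, DESeq2 1.42.0, limma-voom 3.58.1 with quality weights, a 1.5-fold limit (glmTreat), all 38 or all 23 libraries in 1 fit, the block, 1 surrogate variable (sva 3.50.0) and each library left out. Leaving out libraries with Y-linked transcripts and the adipocyte level as covariate were added after seeing the data.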

Additional observations from a re-analysis of the deposited data

Results flagged for a closer look

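Of 98 gene and group pairs tested for a library far from the rest (49 genes in 2 groups), 3 stood out, fewer than the 1 in 20 that chance gives. ABX 6 was the lowest of its group for Sgk1 (147 CPM) and for Krt2 (3261 CPM), and ABX 4 was the highest for Psat1 (132 CPM).

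The effects of hippuric acid against vehicle and of ABX against no-induction differed by edgeR's test in 266 genes. Among those with the smallest p were differences of effects on the log2 scale of -1.51 (Mgst2), 0.85 (Fam43a), -1.04 (Tef), -1.67 (Rgn), -2.14 (Kng2), 2.13 (Adh6a), -1.22 (Ggct), 1.72 (Ccdc92) and 1.52 (Adamts4). In each of these genes the 5 hippuric acid libraries lay wholly on 1 side of the ABX libraries.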

How the results depend on the processing

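The 2097 genes called between hippuric acid and ABX skin became 1053 with all 38 libraries in the fit, 1328 with the 23 uninduced libraries and 3 with the 1.5-fold limit, and 1317 to 2685 with single libraries left out. Of the 139 called genes followed here, 107 stayed called whichever library was left out, and none changed sign under any alternative. With all 38 libraries in the fit 37 of the 139 were not called, and with the 23 uninduced libraries 25. The 1.5-fold limit left 136 uncalled, and 76 stayed called under every other alternative. The 266 genes of the difference became 703 with DESeq2, 802 with limma-voom, 160 with all 38 libraries, 0 with the fold limit (edgeR's glmTreat, 572 at an unadjusted p under 0.05), 178 without the libraries that hold Y-linked transcripts and 104 to 483 with single libraries left out. Hippuric acid against vehicle ranged from 1149 to 2786 calls (1940 in full; 2786 without vehicle 1) and ABX against no-induction from 3431 to 4732 (4351 in full; 6567 with limma-voom) with single libraries left out, and vehicle against no-induction from 0 to 2 (7 with DESeq2 and 3 with limma-voom).

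With library number as a replicate block the counts were 1502 (direct), 68 (difference), 887 (hippuric acid against vehicle), 1435 (ABX against no-induction) and 6 (vehicle against no-induction), the numbers being shared only as numbers. With the block 30 of the 139 genes were not called, among them Krtap10-4, Krtap1-4, Foxn1, Dlx3 and Tchh. With the adipocyte level as covariate 26 were not called. Among genes that were not called, Cyp2e1 (1.89) became -0.40 with that covariate, Nos2 (0.04) became -0.34 with it and -0.27, -0.06 and -0.08 without hippuric acid 1, ABX 1 and ABX 3 (highest 0.18, without ABX 6). Mapk14 (-0.02) became 0.009 without ABX 2 (lowest -0.048, without ABX 6). The causes were not tested.

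Depth limited genes near 1 CPM, such as Acta1, Lep and the largest falls. Labels limit the rest: cohort, sex and collection time are not given, 3 vehicle libraries carry the control of hippuric acid, and vehicle 1 is among those with Y-linked transcripts.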
